A study of Homo sapiens with 6 samples.

Results

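Neuroblastoma cells occur in an adrenergic state, held by transcription factors of the sympathetic lineage, and in a mesenchymal state that resembles neural crest and stromal precursors. The results below concern 10 genes that mark the mesenchymal state, PRRX1, VIM, FN1, CD44, YAP1, WWTR1, SNAI2, TWIST1, NOTCH2 and COL1A1. They were taken by name from the 60709 genes of a table of raw gene counts, and were proposed with earlier results of these data known. The cells were SH-SY5Y, an established human neuroblastoma line. Messenger RNA was sequenced from 3 control wells that had received 10 uL of DMSO and were lysed after 5 h. The wells held 2 mL of medium with 10% fetal bovine serum and were at 80% confluence. The labels also describe 3 wells that received, besides the DMSO, a peptide derived from NRF2 and joined to fumarate, in water. Those wells were not analysed here, because the columns used were matched by number, and only the control samples carry the numbers 4, 5 and 6 that head columns of the table. No comparison between treatments is therefore reported. If the columns had been numbered independently of the labels, the libraries called control here could be others of the study.

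As background, the homeobox factor PRRX1 can drive neuroblastoma cells into the mesenchymal state, and NOTCH2 is a receptor whose pathway has been linked to the same switch. SNAI2 and TWIST1 are transcription factors of neural crest migration and of the epithelial-mesenchymal transition (EMT). YAP1 and its paralog TAZ, encoded by WWTR1, are co-activators held in check by the Hippo kinases and bind DNA through TEAD factors. VIM encodes the intermediate filament vimentin, FN1 the matrix protein fibronectin, COL1A1 a chain of type I collagen, and CD44 the hyaluronan receptor.

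The 10 markers did not share a level in these cells. TWIST1 and VIM were among the most abundant transcripts, FN1 and NOTCH2 were above the median gene, SNAI2, YAP1 and COL1A1 were below it, CD44 was near the bottom of the detected genes, WWTR1 was barely counted and PRRX1 had no count at all. At least 10 counts in every library, called detected below, were recorded for 8 of the 10 markers. The share was 22.9% over all genes of the table and 62.2% over its protein-coding genes. Together the markers took 0.0880, 0.0872 and 0.0877% of all counts of replicates 1, 2 and 3. The 95% Wilson limits were 0.0862 and 0.0897% for the first of these libraries, 0.0855 and 0.0889% for the next, and 0.0858 and 0.0897% for the last. The intervals overlap, and they cover counting error only. In RNA from a whole well, fewer cells that express a gene and less of its RNA per cell cannot be told apart.

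Library totals ranged from 8887854 to 11397407 counts. Replicate 3 stood apart from the others: mitochondrially encoded genes held 6.25% of its counts, against 3.83 and 4.11% in replicates 2 and 1. Of 8 adrenergic markers, 7 were detected and TH, the tyrosine hydroxylase gene, had 0 counts in every library. Their summed level was 2925, 2843 and 2557 CPM (counts per 1000000 library counts, scaled between libraries) in replicates 1, 2 and 3, lowest in replicate 3. Markers of endothelial cells (0 of 5 detected), leukocytes (1 of 5) and Schwann cells (2 of 6) summed to 0.113 to 0.263, 1.81 to 2.62 and 6.21 to 8.47 CPM. SOX10, CDH5, TEK, LYZ and CD3E had 0 counts. Fibroblast markers were present, with 7 of 8 detected and a sum of 426 to 474 CPM. COL3A1 made up most of that sum, and POSTN had 0 counts. Their part in the levels of the mesenchymal markers was not tested.

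Promoter sequences from RefSeq (GRCh38.p14) matched 7 of the 10 markers by symbol, with 8 windows of 250 bases before an annotated start. That start need not be the outermost one of the gene. The windows of PRRX1, CD44 and WWTR1 fell inside the gene coordinates given below, and the window of FN1 fell partly inside. The windows of 4 markers are shown because these genes span the range of levels, from VIM and FN1 through YAP1 to PRRX1. They are written 5′ to 3′ on the strand of the gene, and capitals mark matches to the motifs searched.
VIM (chr10:17227991-17228240, plus strand): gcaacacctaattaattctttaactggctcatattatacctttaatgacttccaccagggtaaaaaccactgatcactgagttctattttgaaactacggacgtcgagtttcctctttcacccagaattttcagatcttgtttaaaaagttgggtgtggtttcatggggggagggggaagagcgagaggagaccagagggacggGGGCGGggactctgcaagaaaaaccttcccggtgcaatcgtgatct
FN1 (chr2:215436069-215436318, minus strand): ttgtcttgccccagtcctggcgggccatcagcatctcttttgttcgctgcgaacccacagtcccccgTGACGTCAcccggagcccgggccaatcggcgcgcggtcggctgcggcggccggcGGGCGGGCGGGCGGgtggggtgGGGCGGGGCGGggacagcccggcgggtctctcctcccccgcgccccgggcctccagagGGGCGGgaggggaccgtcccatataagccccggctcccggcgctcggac
YAP1 (chr11:102110197-102110446, plus strand): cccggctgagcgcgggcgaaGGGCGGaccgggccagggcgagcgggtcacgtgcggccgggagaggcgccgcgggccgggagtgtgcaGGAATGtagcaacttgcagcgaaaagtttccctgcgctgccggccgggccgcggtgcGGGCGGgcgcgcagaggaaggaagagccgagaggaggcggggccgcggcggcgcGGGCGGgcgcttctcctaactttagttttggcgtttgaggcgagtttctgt
PRRX1 (chr1:170663881-170664130, plus strand): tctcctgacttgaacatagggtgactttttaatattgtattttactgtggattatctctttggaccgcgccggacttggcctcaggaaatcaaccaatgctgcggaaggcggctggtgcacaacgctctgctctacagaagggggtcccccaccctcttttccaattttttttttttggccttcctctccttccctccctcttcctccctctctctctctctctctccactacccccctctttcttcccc

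The YAP1 window contained GGAATG, the core recognised by TEAD factors, 162 bases before the start. That motif, on either strand, was found in 11.9% of the 35116 windows of all genes and in 1 of the 8 marker windows. The FN1 window contained TGACGTCA, the cyclic AMP response element, which occurred in 1.65% of all windows. The GC box GGGCGG occurred in windows of CD44, FN1, NOTCH2, VIM and YAP1, and in 42.6% of all windows. In FN1 several of its matches overlap one another. No window of a marker contained the E-box CAGGTG of SNAI2 and ZEB factors (17.5% of all windows), the RBPJ core TGGGAA (20.8%), the AP-1 site TGANTCA (6.57%) or TATAAA (10.7%). The TWIST E-box CATCTG (12.2% of all windows) was matched on the opposite strand in 1 of the WWTR1 windows, 34 bases before the start. CG dinucleotides numbered 36 in the window of YAP1, 32 in FN1, 29 in NOTCH2, 15 in CD44, 13 and 1 in WWTR1, 8 in VIM and 6 in PRRX1, against a median of 11 over all windows. These matches describe the letters and do not show binding.

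Among the transcription factors, PRRX1 (ENSG00000116132.12, chr1:170662728-170739419) had 0 counts in each of the 3 libraries. A count of 0 allows up to 3 counts per library, which is 0.263 to 0.339 CPM, or 0.0613 to 0.0791 CPM per kilobase of its longest transcript. Levels of different genes are compared below only as CPM per kilobase. Its paralog PRRX2 had 44, 44 and 27 counts and a level of 2.80 ± 0.42 CPM per kilobase (SD, n = 3, as for all errors below).

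TWIST1 (ENSG00000122691.13, chr7:19020991-19117672) had 2122, 2261 and 1448 counts in replicates 1, 2 and 3. Its levels were 198, 198 and 164 CPM, a mean of 187 ± 19.99 CPM. Replicates 1 and 2 were alike, and replicate 3 was lower. Per length it was the highest of the markers, at 112 ± 12.0 CPM per kilobase, above 97.2% of the 13863 detected genes with a known length. Its paralog TWIST2 had 0 counts in all libraries.

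SNAI2 (ENSG00000019549.13), which encodes the zinc-finger repressor Slug, had 132, 114 and 139 counts. Its levels were 12.3, 9.98 and 15.7 CPM, highest in replicate 3 and lowest in replicate 2. The mean of 4.48 ± 1.02 CPM per kilobase lay above 34.3% of the detected genes. Within each library TWIST1 exceeded SNAI2 per kilobase, by 27.3, 33.7 and 17.7 times. SNAI1, which encodes Snail, was close to SNAI2, at 5.03 ± 0.64 CPM per kilobase. The ratio of SNAI2 to SNAI1 was 0.915, 0.772 and 0.964 in the 3 libraries, and from the pooled counts 0.883 with an exact binomial 95% interval of 0.752 to 1.04. With the principal transcripts as length the ratio of their mean levels was 1.04, and with the union of all exons it was 0.742. How close they were thus depended on the length used.

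Of the 7 related EMT factors, 4 were detected. ZEB1 and ZEB2, zinc-finger repressors of epithelial genes, were the highest, at 8.33 ± 0.82 and 7.13 ± 0.12 CPM per kilobase, followed by SNAI1 and PRRX2. SNAI3 had 2 or 3 counts per library, and FOXC2, like TWIST2, had 0. TWIST1 was thus more than an order of magnitude above any of these relatives per kilobase.

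**Figure D1:**
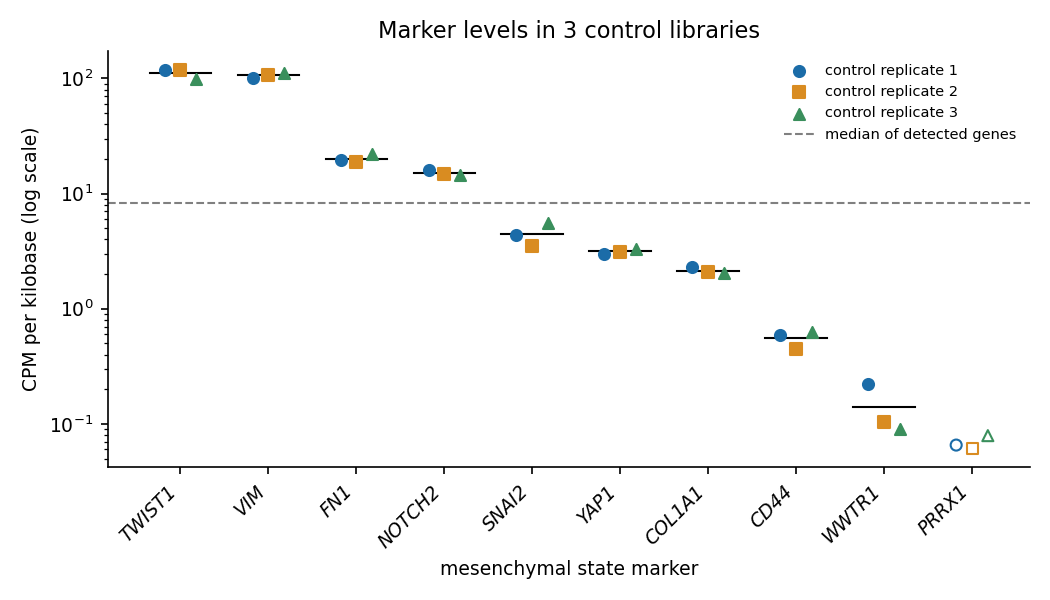
Levels of the 10 markers in CPM per kilobase (log axis) in control replicates 1, 2 and 3; black lines are means and the dashed line is the median of the detected genes (8.34). Open symbols for PRRX1 are the limits set by 3 counts, since it had 0 counts; TWIST1 and VIM overlap near 100, and WWTR1 is the lowest marker with any count.

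In the YAP and TAZ pair, YAP1 (ENSG00000137693.14, chr11:102110461-102233423) had 174, 193 and 157 counts, which gave 16.3, 16.9 and 17.7 CPM. The 3 values were close, with a coefficient of variation of 4.32%, less than the counting error of 7.20 to 7.98% per library. Its level was 3.14 ± 0.14 CPM per kilobase, above 26.6% of the detected genes. WWTR1 (ENSG00000018408.15, chr3:149517235-149736714) had 12, 6 and 4 counts, or 1.12, 0.525 and 0.452 CPM. Replicate 1 was the highest, but the counting error alone was 28.9 to 50.0% per library, so the order of the libraries is uncertain. The ratio of YAP1 to WWTR1 per kilobase was 13.5, 30.0 and 36.6, and 22.2 from pooled counts (exact binomial 95% interval 14.5 to 35.7). That interval covers counting error only, and the ratios of replicates 1 and 3 lay outside it.

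The partners of YAP1 were present in most cases. Of 16 TEAD, VGLL4, Hippo kinase and scaffold genes, 15 were detected, and the list median was 9.87 ± 0.27 CPM per kilobase, against 8.34 ± 0.10 for all detected genes. VGLL4, a TEAD-binding antagonist of YAP1, had 36.9 ± 1.86, the junction scaffold AMOTL1 33.01 ± 1.37 and TEAD2 30.9 ± 2.47 CPM per kilobase. The exception was the kinase gene LATS2, with 1, 2 and 0 counts. Of 14 genes known as YAP and TAZ targets, 8 were detected, and the list median was 1.27 ± 0.17 CPM per kilobase. The highest were AMOTL2 (8.79 ± 0.52), CCN1 (8.76 ± 0.41) and ARHGEF17 (8.28 ± 0.29 CPM per kilobase). The receptor kinase gene AXL had 0 counts in every library, and CCN2 and ANKRD1 had 0, 1 and 0 counts each. CCN1, CCN2 and ANKRD1 are all usual reporters of YAP activity, and they differed, since CCN1 had 226, 223 and 173 counts. AMOTL2 and LATS2 are in both lists.

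NOTCH2 (ENSG00000134250.20, chr1:119911553-120069626) had 1964, 1925 and 1464 counts. Its levels were 184, 168 and 165 CPM, a mean of 172 ± 9.80 CPM or 15.1 ± 0.86 CPM per kilobase, above 67.2% of the detected genes. NOTCH2 shares near-identical exons with the NOTCH2NL genes, and how reads of both were assigned is not stated. NOTCH2NLA, NOTCH2NLB and NOTCH2NLR had 0 counts and NOTCH2NLC had 0, 0 and 2. Per kilobase NOTCH2 exceeded NOTCH3 in every library, by 1.43, 1.47 and 1.64 times, and NOTCH1 by 4.43, 4.33 and 4.37 times. With the exon union NOTCH2 exceeded NOTCH3 by 1.05, 1.08 and 1.20 times, and their ranges overlapped.

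Of 23 other genes of the Notch pathway, 19 were detected, with a list median of 4.64 ± 0.46 CPM per kilobase. The non-canonical ligand DLK1 was the highest at 82.4 ± 14.6, followed by the gamma-secretase subunit gene NCSTN at 69.8 ± 6.66 and the co-activator gene MAML1 at 26.0 ± 1.45 CPM per kilobase. Ligand transcripts other than DLK1 were below the median of all detected genes. DLL3 had 4.42 ± 0.85, JAG1 had 1.79 ± 0.25 and JAG2 1.58 ± 0.28 CPM per kilobase, and DLL1 and DLL4 had at most 6 counts in any library. The target gene HES1 had 3.15 ± 0.19 and HEY1 7.59 ± 0.49 CPM per kilobase, while HEY2 and HEYL had at most 2 counts. The target genes HES4 and NRARP were higher, at 13.0 ± 2.07 and 8.66 ± 0.57 CPM per kilobase.

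VIM (ENSG00000026025.16, chr10:17228259-17237593) had 2872, 3268 and 2655 counts, or 269, 286 and 300 CPM. The mean was 285 ± 15.7 CPM and 107 ± 5.88 CPM per kilobase, above 97.0% of the detected genes. With the exon union as length it was 55.2 ± 3.04 CPM per kilobase, above 95.5% of them. The antisense gene VIM-AS1 had 4, 3 and 2 counts, and whether the counting used strand is not stated. Transcripts of neuronal filaments were detected beside it. Of 12 other intermediate filament genes, 8 were detected, led by the lamin gene LMNA (122 ± 10.1), the nestin gene NES (78.4 ± 6.49) and the internexin gene INA (41.4 ± 1.31 CPM per kilobase). The neurofilament genes NEFM, NEFL and NEFH had 30.2 ± 3.20, 27.4 ± 1.20 and 25.6 ± 0.94 CPM per kilobase. The peripherin gene PRPH, also a neuronal filament gene, was far lower, with 49, 49 and 42 counts. Its level per kilobase lay above 13.8% of the detected genes. The ratio of VIM to NES per kilobase was 1.22, 1.32 and 1.59 with the longest transcript and 0.629, 0.680 and 0.820 with the exon union, so their order depended on the length used.

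FN1 (ENSG00000115414.21, chr2:215360440-215436172) had 1918, 1978 and 1779 counts, or 179, 173 and 201 CPM, highest in replicate 3. Its mean was 184 ± 14.6 CPM and 20.1 ± 1.59 CPM per kilobase, above 74.9% of the detected genes. With the exon union it had 10.7 ± 0.84 CPM per kilobase, above 66.3% of them. COL1A1 (ENSG00000108821.14, chr17:50183289-50201632) had 166, 161 and 121 counts, or 15.5, 14.1 and 13.7 CPM. It had 2.14 ± 0.14 CPM per kilobase, above 20.04% of the detected genes.

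The partner chain of COL1A1 was nearly missing. COL1A2, whose product joins that of COL1A1 in type I collagen, had 1, 3 and 2 counts, so that COL1A1 exceeded it 66.5 times per kilobase over the pooled counts (exact binomial 95% interval 30.3 to 182). Other collagen genes ranged widely. COL12A1 had 1, 0 and 1 counts and COL5A2 0.975 ± 0.105 CPM per kilobase. COL3A1, which encodes type III collagen, had 57.0 ± 3.78 CPM per kilobase and exceeded COL1A1 by 24.3, 25.7 and 30.1 times. COL4A1 and COL4A2, the paired chains of basement membrane collagen, were at a ratio of COL4A2 to COL4A1 of 1.94, 1.91 and 1.88. With the exon union that ratio was 1.46, 1.43 and 1.41, so its size depended on the length used.

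Of 23 collagen, matrix and collagen-processing genes, 17 were detected, with a list median of 11.8 ± 0.82 CPM per kilobase. COL6A2 (72.2 ± 5.44), COL3A1 and the collagen chaperone gene SERPINH1 (49.3 ± 0.95 CPM per kilobase) were the highest. POSTN and the lysyl hydroxylase gene PLOD2 had 0 counts in every library, and COL6A3, the third chain of collagen VI, had 5, 4 and 9 counts. LUM, DCN, COL3A1 and POSTN are also in the fibroblast list.

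CD44 (ENSG00000026508.20, chr11:35138870-35232402) had 36, 29 and 32 counts, or 3.37, 2.54 and 3.61 CPM. The spread of 17.8% was about the counting error of 16.7 to 18.6% per library. Its 0.553 ± 0.098 CPM per kilobase lay above 4.23% of the detected genes, and the 0.317 ± 0.056 CPM per kilobase of exon union above 2.58%. Of 22 other receptors for matrix and enzymes or receptors for hyaluronan, 21 were detected, with a list median of 7.70 ± 0.98 CPM per kilobase. The integrin subunit gene ITGB1 was the highest at 148 ± 14.2, and the syndecan gene SDC1 and ITGB5 had 39.8 ± 2.30 and 26.1 ± 1.37 CPM per kilobase. The fibronectin receptor subunit ITGA5 was low, at 2.27 ± 0.21, against 16.2 ± 0.78 CPM per kilobase for ITGAV. HMMR, the other hyaluronan receptor in the list, had 14.9 ± 2.45 CPM per kilobase, and the hyaluronan synthase HAS2 had 1.77 ± 0.57.

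**Figure D2:**
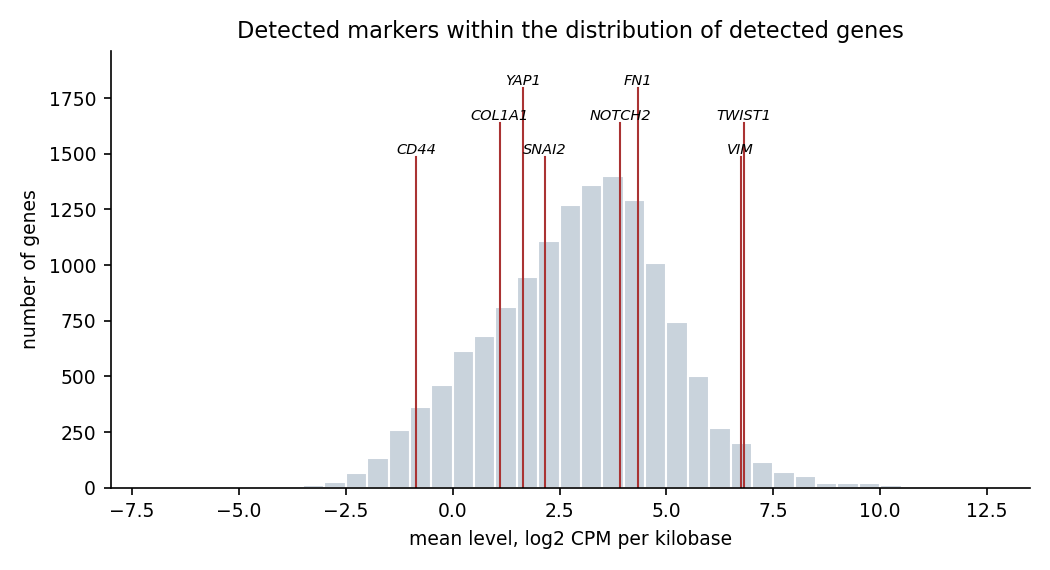
Number of detected genes by mean level (log2 CPM per kilobase, bins of 0.5), with red lines at the 8 detected markers. The markers are spread over the distribution, from CD44 on its low flank to VIM and TWIST1 on its high flank.

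Ordered by level per kilobase, the markers ran TWIST1, VIM, FN1, NOTCH2, SNAI2, YAP1, COL1A1, CD44, WWTR1 and PRRX1. The order of TWIST1 and VIM depended on the transcript length used. With the longest transcript TWIST1 was higher in 2 of 3 libraries and the ranges overlapped, and without replicate 1 VIM came first. With the union of all exons as length TWIST1 was higher in 3 of 3 libraries (1.66-fold), and with the principal transcript it was higher in 0 of 3 (ratio 0.840). FN1 was higher than NOTCH2 in 3 of 3 libraries with the longest transcript. With the exon union it was higher in 1 of 3, at a ratio of 1.04, and the ranges overlapped. In the other neighbouring pairs the higher gene was higher in 3 of 3 libraries, without overlap of the ranges, under all 3 lengths for the genes with counts. With the longest transcript the steps were 1.33-fold from FN1 to NOTCH2, 1.43-fold from SNAI2 to YAP1 and 1.47-fold from YAP1 to COL1A1. Among genes with counts the widest was 5.31-fold, from VIM to FN1.

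Factors of the adrenergic state were for the most part higher. All 10 adrenergic transcription factors of the list were detected, with a median of 56.5 ± 0.67 CPM per kilobase, 14.8 times the median of 3.81 ± 0.55 over the 10 mesenchymal markers. Over detected genes only, the marker median was 9.81 CPM per kilobase and the ratio 5.76. Adrenergic factors were led by HAND2 at 329 ± 15.9, PHOX2A at 186 ± 15.9 and GATA2 at 129 ± 6.47 CPM per kilobase. With the longest transcript, TWIST1 and VIM lay between GATA2 and ISL1 (73.2 ± 4.76 CPM per kilobase). HAND2, like TWIST1 a basic helix-loop-helix factor, exceeded it by 2.85, 2.83 and 3.16 times in the 3 libraries.

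Of 20 other transcription factors linked to the mesenchymal state, 17 were detected, with a median of 2.98 ± 0.38 CPM per kilobase. ID1, an inhibitor of helix-loop-helix factors, had 122 ± 5.14, JUN 27.0 ± 3.55 and CREG1 18.3 ± 4.01 CPM per kilobase. RUNX2, MEOX1 and MEOX2 had 0 counts in every library. Among 12 cadherin and epithelial genes, the neural cadherin gene CDH2 had 96.7 ± 5.61, the junction gene TJP1 18.9 ± 0.41 and CDH11 6.75 ± 0.62 CPM per kilobase. The epithelial genes CDH1 and GRHL2 had 0 counts in every library. That list had 6 detected genes and a median of 0.341 ± 0.077 CPM per kilobase.

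**Figure D3:**
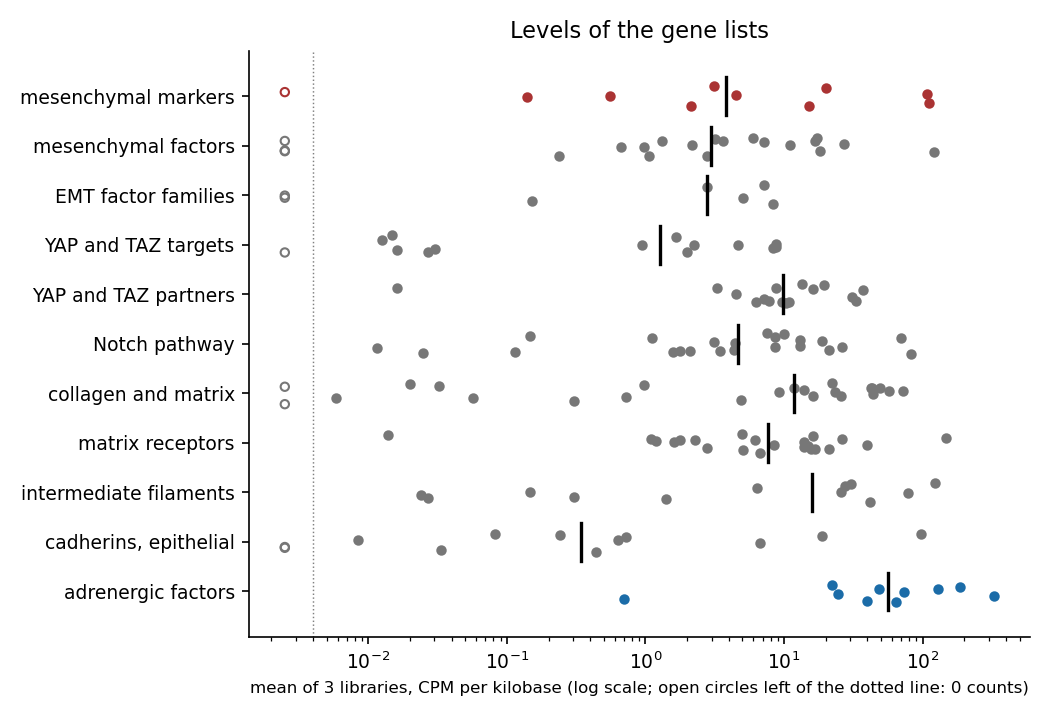
Mean level of each gene over the 3 control libraries (CPM per kilobase, log axis), 1 point per gene in each list; black bars are list medians and open circles are genes with 0 counts. The mesenchymal markers (red, median 3.81) run from 0 counts in PRRX1 to 112 in TWIST1, and the adrenergic factors (blue) have a median of 56.5.

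The spread between libraries was read against that of all detected genes. The highest library was at least 1.5 times the lowest for 1 of the 8 detected markers, SNAI2 (1.57 times), against 9.74% of the 13920 detected genes. The median ratio of highest to lowest was 1.15 over these markers and 1.18 over all detected genes. In replicate 3, genes with GC-rich transcripts were lower and GC-poor ones higher. On the scale of log2(CPM + 1), SNAI2, with 41.4% GC, was higher in replicate 3 than the mean of the others by 0.46. The 95th percentile among the 693 genes of its GC range was 0.39. TWIST1, with 57.2% GC, differed by -0.28. With the GC trend of each library removed, these differences were 0.36 and -0.14, and the ratio of highest to lowest for SNAI2 was 1.48, so that no marker reached 1.5. SNAI2 also did not reach 1.5 without replicate 2 or without replicate 3. The summed level of the adrenergic markers was also lowest in replicate 3. The median of the 10 adrenergic factors was not, at 55.8, 57.0 and 56.9 CPM per kilobase in replicates 1, 2 and 3. The part of the GC trend or of the adrenergic genes in the difference of replicate 3 was not tested.

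**Figure D4:**
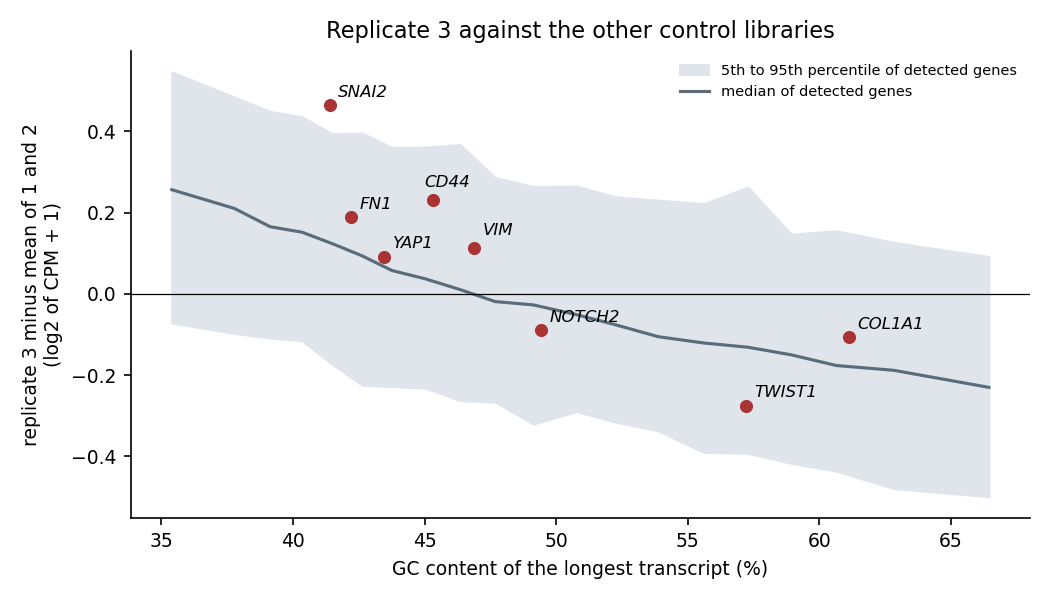
Difference of replicate 3 from the mean of replicates 1 and 2 (log2 of CPM + 1) against the GC content of the longest transcript, for the 8 detected markers (red) and all detected genes (line, median; band, 5th to 95th percentile in 20 GC bins). The median of all genes falls with GC, SNAI2 lies above the band at 0.46, and the other 7 markers lie inside it.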

How the data were processed

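The deposited table gives raw gene counts per Ensembl gene, unnormalized, per the file headers, and all values are whole numbers. The submitters' processing notes name fastp 0.21.1, STAR 2.7.7a, featureCounts and GRCh38. The annotation release, strand setting and treatment of shared reads are not given in the sources used here. Columns were assigned to samples by the number in their heading, and 3 columns whose number no label carries were not used. An entry without values in the used columns and 2 lines that name no gene were left out. The latter hold no counts in those columns.

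Counts were scaled to CPM with TMM factors (edgeR 4.0.16, R 4.3.3) and divided by the longest transcript of each gene in GENCODE release 29 (GRCh38), which may differ from the annotation the authors used. Coordinates are from that release. A GC trend was the median log2 deviation in 50 bins over 10290 nuclear genes. The code was tested on simulated counts. Errors are SDs over 3 libraries. Exact binomial intervals were taken on counts pooled over the libraries, so they cover counting error and not the spread between libraries. Nothing says that the wells were separate cultures, so the spread may be technical. Python 3.11.15, numpy 2.4.6, pandas 2.3.3, scipy 1.17.1 and matplotlib 3.10.9 were used.

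The markers, lists, motifs and tests were chosen with earlier results of these data known. From each list the 3 highest genes and those with 0 counts were named, lists of up to 8 genes could be named whole, and any other gene was picked with its values in view. Alternatives were RLE factors, library size alone, other lengths and count minimums, removal of the GC trend or of mitochondrial genes, and leaving out each library.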

Additional observations from a re-analysis of the deposited data

How the results depend on the processing

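No paired analysis was possible because columns matched the control samples only. The planned comparison of peptide with control wells and its alternatives (RLE, DESeq2, no filter, replicates left out) were not run for the same reason. The number of detected markers, 8, ranged from 8 to 9 over the alternatives run. The number that spread at least 1.5-fold, 1, was 0 with the GC trend removed and 2 without the filter on low counts, which adds WWTR1, and it ranged from 0 to 1 without 1 replicate.

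Length models and the count minimum moved the medians most, by construction. With the exon union as length, the median of the markers went from 3.81 to 3.22 CPM per kilobase. Of single markers, 7 moved by at least 1 SD with that length. VIM went to 55.2, FN1 to 10.7, CD44 to 0.317, TWIST1 to 91.8, NOTCH2 to 10.3, YAP1 to 2.69 and COL1A1 to 1.47. The adrenergic factors then had 52.9, the mesenchymal factors 2.12, YAP and TAZ partners 7.35, collagen and matrix genes 9.07 and cadherin and epithelial genes 0.246. The median of all detected genes was 6.15 with that length. With the principal transcript, adrenergic factors had 67.4, mesenchymal factors 3.49 and YAP and TAZ partners 10.2. All detected genes had a median of 9.41 with that length, VIM went to 133 and FN1 to 23.4. Leaving out mitochondrial genes moved YAP1 to 3.30. Over detected genes only, the markers had 9.81, mesenchymal factors 3.61, EMT factors 6.08, YAP and TAZ partners 10.3, their targets 3.46, Notch genes 8.27, collagen and matrix genes 22.1, intermediate filaments 28.8 and cadherin and epithelial genes 3.74. RLE factors moved none of the marker and list medians by 1 SD. The ratio of adrenergic to marker medians ran from 13.9 to 16.5 over the alternatives that kept every list gene, and was 5.76 over detected genes only. Depth limits WWTR1 and CD44, with 4 to 36 counts per library.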
